A study of Mus musculus with 12 samples.

Results

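T3 and CORT were given to HT-22 cells alone and together, and the departure of the combined response from the product of the separate responses was read for every detected transcript as the interaction, (T3+CORT minus CORT) minus (T3 minus vehicle), on the log2 scale. All 12 of the 12 arrays of the study entered this contrast, with 3 arrays in each of 4 groups. Cells received T3+CORT (30 nM triiodothyronine and 100 nM corticosterone), CORT (100 nM corticosterone), T3 (30 nM triiodothyronine) or vehicle for 4 h, and every group held 0.03% DMSO and 0.001% ethanol in serum-free medium after growth in serum stripped of thyroid and steroid hormones. HT-22 is a mouse hippocampal line immortalized with a viral T antigen, so that all arrays come from 1 cell line. The question put to the data was whether T3 acts differently on a transcript when CORT is present than when it is absent.

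Thyroid hormone acts through nuclear receptors that sit on DNA with or without the hormone and exchange corepressors for coactivators when T3 binds. Corticosterone, the main glucocorticoid of rodents, binds the glucocorticoid receptor, which then moves into the nucleus and activates or represses its target genes. If T3 multiplies a transcript by the same factor with and without CORT, the interaction is 0, whatever the size of either effect. A positive value means that the T3+CORT signal lies above the product of the separate effects, and a negative value that it lies below it.

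The signals are linear normalized intensities of the bead array, which holds 45281 probes. The 12 arrays share 1 distribution (medians of 71.2 or 71.3), and 14507 to 14518 probes per array reached a signal of 100, the brightness limit used here. A total of 15255 probes reached it on at least 3 of the 12 arrays and were tested, whatever their group, and 30026 did not. The limit is not a detection call, and background was not subtracted, which compresses the changes of dim probes. The spread around the group means was largest on the T3 arrays, with residual SDs of 0.145, 0.177 and 0.113 on the log2 scale, against 0.076 to 0.113 on the other 9 arrays. With 3 arrays per group the precision is limited, and at the median probe the interaction had a 95% interval that extended 0.28 to either side. The cells are labelled as hippocampal neurons, but of 25 neuronal marker genes with a probe only 2, *Eno2* and *Ncam1*, were among the tested probes, and *Rbfox3*, *Map2*, *Tubb3*, *Syp* and *Snap25* had group means below the limit in all 4 groups. Of 19 fibroblast and mesenchymal markers 16 were tested. In RNA from whole cultures, fewer cells that express a transcript and less of it per cell cannot be told apart.

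Every interaction that passed the test was negative. At an adjusted p under 0.05 (limma, Benjamini-Hochberg over the 15255 probes) 21 probes passed, which is 0.138% of those tested, and 0 of them were positive. They represent 17 named genes and 1 probe without a gene name, with 3 probes for *Gas7* and 2 for *Plec*. One of the 21, of *Slurp1*, entered the test only through its CORT arrays. At these probes T3+CORT reached 42.6% to 65.8% of the signal expected if the effects of the hormones multiplied. The study called changes against vehicle at a p under 0.02 and at least 1.5-fold. With these thresholds applied to the interaction instead (unadjusted limma p, ratio of fold changes), 45 probes were negative (0.295%) and 1 was positive (0.00656%). The positive one was a probe of *Ccn1*, a matricellular protein gene (interaction 0.66, adjusted p = 0.44), named here after its value was seen.

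The imbalance grew with the stringency of the test and was absent from the bulk of the probes. Over all 15255 probes 7900 interactions were above 0 and 7355 below, with a median of 0.007 and an SD of 0.16. At an unadjusted p under 0.05, 554 were negative (3.63%) and 444 positive (2.91%). At a p under 0.02 the counts were 311 negative and 167 positive, and at a p under 0.001 they were 72 and 3. The lowest 1% of probes lay below -0.43 and the highest 1% above 0.36, and the extremes were -1.23 and 0.66.

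The number of probes that passed fell whichever array was left out, which also leaves fewer arrays to estimate the spread. It was 7, 3 and 5 without T3+CORT replicates 1, 2 and 3, it was 10, 2 and 11 without CORT replicates 1, 2 and 3, and it was 7, 2 and 4 without vehicle replicates 1, 2 and 3. Without T3 replicates 1, 2 and 3 it was 19, 20 and 15. All of these were negative, and *Spon2* and *Il1rl1* were the only 2 of the 21 probes that passed in each of the 12 fits. A fit with array weights, which gave T3 replicates 1 and 2 weights of 0.44 and 0.26 and T3 replicate 3 a weight of 2.23, passed 70 probes, 63 negative and 7 positive. The methods' t-test passed 0 probes after adjustment, with 792 at an unadjusted p under 0.05, and at the thresholds of the study it gave 39, all negative. The methods give each treatment as done in triplicate and, like the labels, do not say whether these were independent cultures, so the p-values measure the spread between these arrays, which may be partly technical.

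**Figure D1:**
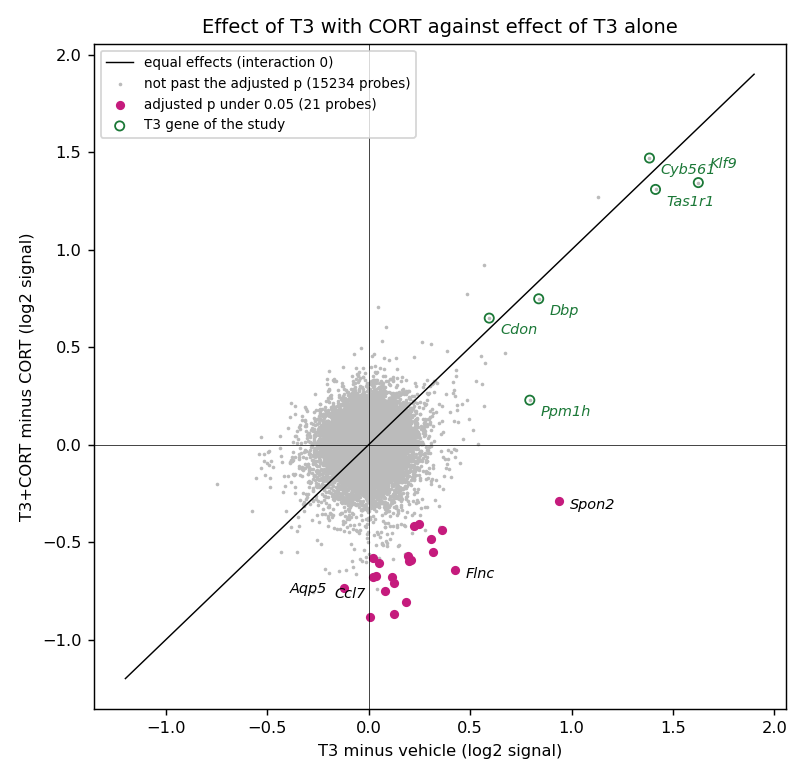
Each point is 1 of the 15255 tested probes, with the log2 effect of T3 alone (T3 minus vehicle) on the horizontal axis and the log2 effect of T3 with CORT present (T3+CORT minus CORT) on the vertical axis; the diagonal marks an interaction of 0. The 21 probes that passed (large filled points) all lie below the diagonal, and the open circles, 6 of the 9 genes the study lists for T3, lie to the upper right, while *Spon2*, also of that list, lies at the lower right.

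The T3 effects behind these values mostly had opposite signs with and without CORT. For 20 of the 21 probes the mean was lower with T3+CORT than with CORT, and higher with T3 than with vehicle. Since the interaction is the difference of these effects and shares its arrays with them, probes picked by it tend to show opposite signs. Each effect on its own passed unequally often: T3 with CORT was lower at an adjusted p under 0.05 for 20 of the 21, and T3 alone was higher for 1, *Spon2*, with 10 at an unadjusted p under 0.05. Over all tested probes T3 with CORT was lower at 77 (0.505%) and higher at 25 (0.164%), and T3 alone was higher at 14 (0.0918%) and lower at 2 (0.0131%). The 3 arrays with T3+CORT lay below all 3 arrays with CORT at all 21 probes, and the T3 arrays lay above all vehicle arrays at 9.

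Among genes for secreted and matrix proteins the largest departure was that of *Spon2*, which encodes a secreted protein of the extracellular matrix (probe ILMN_1229547). Its signals were 1734, 1791 and 1898 on the T3+CORT arrays, 2152, 2221 and 2260.1 on the CORT arrays, 4766, 6094 and 4875 on the T3 arrays and 2769, 2879 and 2523 on the vehicle arrays. The T3 arrays stood above all others, and the T3+CORT arrays were the lowest, with no overlap between any of the 4 groups. The product of the separate effects would be 4236, and the T3+CORT signal was 42.6% of that. The interaction was -1.23 (95% interval -1.50 to -0.96, adjusted p = 0.00065). T3 alone raised *Spon2* (T3 effect 0.94 on the log2 scale, adjusted p = 5.5e-05). With CORT present the T3 effect was -0.29 (adjusted p = 0.24).

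*Ccl7* encodes a chemokine that attracts monocytes. Its signals (probe ILMN_2835117) were 1761, 1674 and 1801 with T3+CORT, 3356, 2667 and 2836 with CORT, 5903, 4474 and 4762 with T3 and 4612, 4670 and 4938 with vehicle. T3 arrays overlapped vehicle arrays, while the T3+CORT arrays lay below every CORT array and both CORT groups below the groups without CORT. CORT alone lowered it by 0.69 on the log2 scale (log2 fold change -0.69, adjusted p = 0.00019) and CORT with T3 present by more (log2 fold change -1.52, adjusted p = 4.3e-08), an interaction of -0.83 (95% interval -1.14 to -0.53, adjusted p = 0.026). A second probe of the gene, ILMN_2771176, gave -0.47, which did not pass (adjusted p = 0.16).

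*Angptl4*, whose product is a secreted inhibitor of lipoprotein lipase, followed the same order. The arrays read 246, 245 and 241 with T3+CORT, 340.2, 383 and 383 with CORT, 536, 594 and 633 with T3 and 517, 474 and 543 with vehicle. T3+CORT lay below CORT, and CORT below the groups without it, with overlap only between T3 and vehicle. The interaction was -0.80 (95% interval -1.06 to -0.53, adjusted p = 0.018). *Col6a2*, a chain of type VI collagen, differed in that CORT alone raised it at the probe that passed, ILMN_1258759. The means there were 210.0 ± 10.6 with T3+CORT, 314 ± 10.7 with CORT, 187 ± 3.25 with T3 and 184 ± 4.40 with vehicle (SD, n = 3 arrays). The CORT effect was 0.77 without T3 and 0.17 with it, and the interaction was -0.60 (adjusted p = 0.037). Its other tested probe, ILMN_1216661, did not show that rise, with means of 198 with T3+CORT, 251.6 with CORT, 270.7 with T3 and 242.9 with vehicle. The interaction at that probe was -0.48 and did not pass (adjusted p = 0.62).

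*Slurp1*, a gene for a small secreted protein of the Ly6 family, was near the limit. It read 91.1, 83.1 and 93.0 with T3+CORT, 131, 152 and 146 with CORT, 89.8, 74.8 and 98.1 with T3 and 78.3, 79.8 and 83.3 with vehicle. Only the CORT arrays were above the limit, and the probe was tested through them alone, so that a difference was built into its entry and the other 3 groups have bounds rather than levels. The fitted interaction of -0.79 (adjusted p = 0.026), or -0.51 with signals below 100 set to 100, is therefore not a measured size.

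Among cell surface proteins, *Il1rl1* encodes the receptor for interleukin-33. Its signals (probe ILMN_2757617, named from the probe lists of the study) were 677, 642 and 649 on the T3+CORT arrays, 1250, 1140 and 1059 on the CORT arrays, 759, 646 and 633 on the T3 arrays and 579, 640.1 and 570 on the vehicle arrays. The CORT arrays all lay above every array of the other groups. CORT alone raised the transcript (CORT effect 0.95 on the log2 scale, adjusted p = 3.1e-06). With T3 present the CORT effect was -0.05 (95% interval -0.24 to 0.15). The interaction was -0.99 (95% interval -1.27 to -0.72, adjusted p = 0.0074), and T3+CORT reached 50.3% of the expected 1304.

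*Cd248*, which encodes endosialin, a surface glycoprotein of fibroblasts and pericytes, was lowest with both hormones. The arrays read 1526, 1748 and 1918 with T3+CORT, 2977, 2854 and 2646 with CORT, 2789, 2962 and 2494 with T3 and 2631, 2526 and 2388 with vehicle. The T3+CORT arrays lay below all 9 others. The interaction was -0.84 (95% interval -1.11 to -0.56, adjusted p = 0.017), and that of a dimmer probe, ILMN_2670001, was -0.39 (adjusted p = 0.40). *Aqp5*, a water channel best known from glands and lung, had the same shape, with means of 571 ± 11.4 with T3+CORT, 949 ± 45.7 with CORT, 869 ± 28.8 with T3 and 947 ± 70.9 with vehicle (SD, n = 3 arrays). Its interaction was -0.61 (adjusted p = 0.044), and it was the 1 probe of the 21 whose mean was below vehicle with T3 alone.

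*Nipal1*, a member of the NIPA family of magnesium transporters, and *Popdc3*, a Popeye domain protein of muscle membranes, were dimmer. *Nipal1* had means of 194 ± 3.14 with T3+CORT, 292 ± 14.1 with CORT, 331 ± 30.4 with T3 and 286 ± 12 with vehicle, and an interaction of -0.80 (adjusted p = 0.016). *Popdc3* had 126 ± 6.88 with T3+CORT, 187 ± 6.12 with CORT, 177 ± 9.90 with T3 and 155 ± 3.81 with vehicle, and an interaction of -0.76 (adjusted p = 0.014). In both genes the T3+CORT arrays were below every other array.

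Genes that tie the membrane to the cytoskeleton made up the next group. *Flnc* encodes filamin C, an actin crosslinker of muscle. Its signals were 631, 539.9 and 472 with T3+CORT, 888, 906 and 763 with CORT, 1089.5, 991 and 781 with T3 and 727, 647 and 743 with vehicle. The T3+CORT arrays were the lowest and the T3 arrays the most scattered. The interaction was -1.07 (95% interval -1.45 to -0.69, adjusted p = 0.024), and T3+CORT reached 47.7% of the expected signal.

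*Plec* encodes plectin, which links intermediate filaments to actin and to junctions. Its bright probe, ILMN_2710419, read 5757, 5966 and 5894 with T3+CORT, 7943, 8083 and 7360.0 with CORT, 6694, 6872 and 6338 with T3 and 5721, 5203 and 5849 with vehicle. T3+CORT and vehicle overlapped, with T3 above both and CORT above T3. The interaction was -0.66 (95% interval -0.86 to -0.45, adjusted p = 0.014), and the dimmer probe ILMN_3109360 gave -0.79 (adjusted p = 0.044). *Dysf*, the gene for dysferlin, a membrane repair protein of muscle, showed a like order. It had means of 358 ± 17.0 with T3+CORT, 487 ± 59.3 with CORT, 466 ± 31.0 with T3 and 363 ± 10.8 with vehicle, and an interaction of -0.80 (adjusted p = 0.024).

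*Gas7*, growth arrest specific 7, a membrane and actin binding protein studied for its part in neurite outgrowth, was measured by 3 probes that all passed. At the brightest, ILMN_2468473, the signals were 964, 994 and 1039 with T3+CORT, 1507, 1594 and 1689 with CORT, 693, 807 and 663 with T3 and 699, 702 and 700.3 with vehicle. CORT alone stood highest, T3+CORT lay between it and the groups without CORT, and T3 overlapped vehicle. The interactions were -0.71 at this probe, -0.89 at ILMN_2776850 and -0.99 at ILMN_2924831 (adjusted p = 0.026, 0.037 and 0.024). CORT alone raised the 3 probes by 1.19, 1.19 and 0.81 on the log2 scale, and with T3 present the CORT effects were 0.475, 0.301 and -0.185.

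The remaining genes were a lipid droplet protein and transcription factors. *Plin4*, a perilipin, had the largest CORT effect of the 21 probes, with 383, 447 and 417 on T3+CORT arrays, 693, 674 and 628 on CORT arrays, 169, 140.5 and 144 on T3 arrays and 142, 153 and 151 on vehicle arrays. CORT raised it 4.48-fold without T3 and 2.76-fold with T3, while T3 overlapped vehicle. The interaction was -0.70 (95% interval -0.98 to -0.42, adjusted p = 0.046). *Sox9*, a transcription factor of cartilage and glial development, had means of 2422 ± 118 with T3+CORT, 3706 ± 417 with CORT, 3779 ± 182 with T3 and 3648 ± 177 with vehicle. Neither hormone alone moved it past the test (adjusted p = 0.90 for CORT and 1.0 for T3), and the interaction was -0.66 (adjusted p = 0.040).

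*Klf4*, a Krüppel-like factor, had means of 149 ± 7.93 with T3+CORT, 199 ± 6.07 with CORT, 221 ± 9.77 with T3 and 189.7 ± 16.7 with vehicle, and an interaction of -0.64 (adjusted p = 0.047). Its other probes gave -0.59 and, at the brightest of them, -0.39, neither of which passed. The probe without a gene name, ILMN_2526333, gave -0.87 (adjusted p = 0.017), with all 3 T3+CORT arrays below the limit. Over the genes that passed, 6 further tested probes of 5 genes were on the array, all below 0 and 5 of them at an unadjusted p under 0.05.

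**Figure D2:**
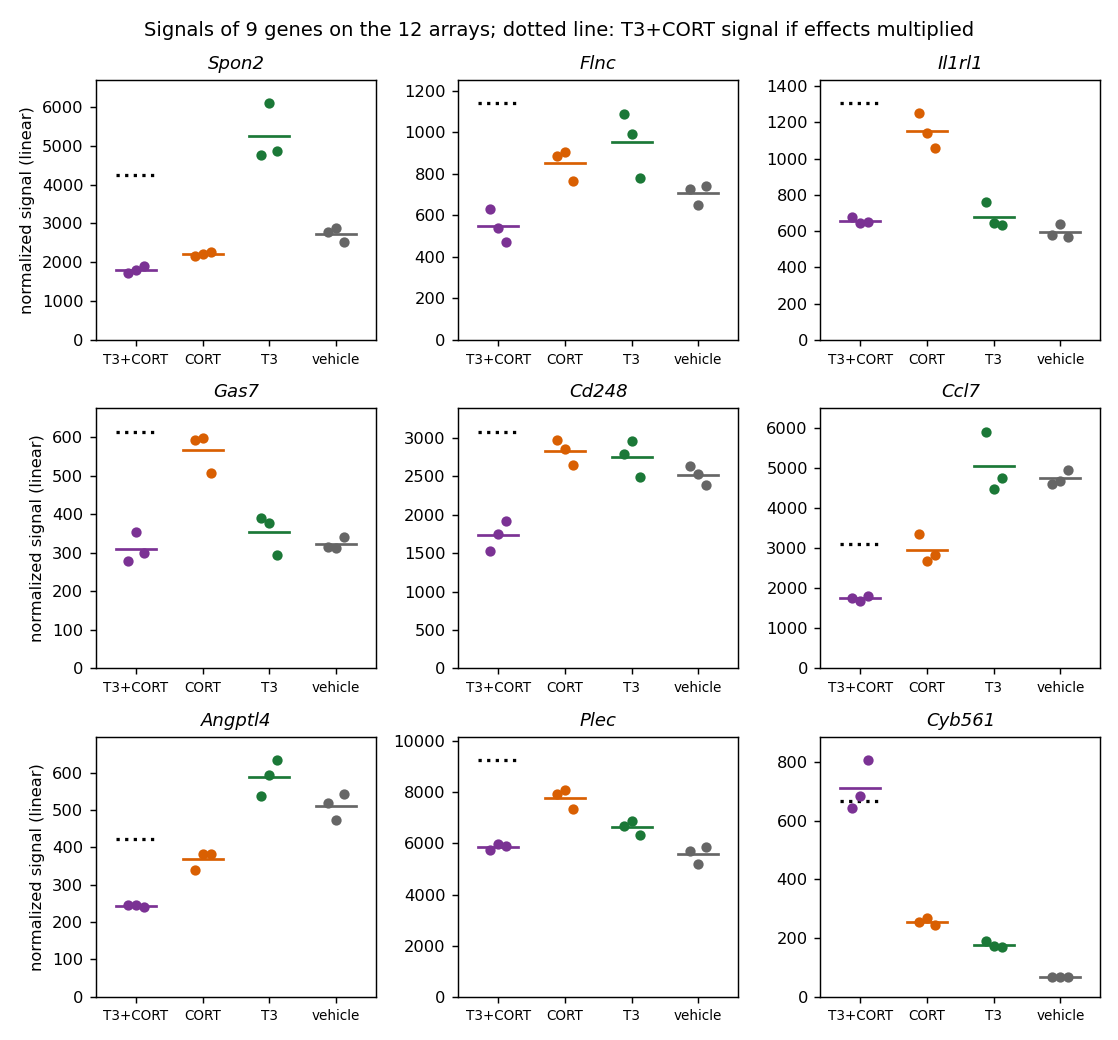
Normalized signals (linear axis from 0) of 8 genes with a negative interaction (*Gas7* at probe ILMN_2924831, *Plec* at its bright probe) and of *Cyb561*, with 1 point per array, a bar at the mean of the 3 arrays and a dotted line at the T3+CORT signal expected if the effects multiplied. In the 8 genes every T3+CORT array lies under the dotted line, at 42.6% of it in *Spon2* and 63.5% in *Plec*, while the *Cyb561* arrays lie around it.

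Promoter sequence was read for the genes that passed, from RefSeq windows of 250 bases before to 50 bases after the start of a transcript (build GRCm38.p6). Of the 17 genes 8 had a window, 12 windows in all. Both strands were searched for TGTTCT, the hexamer that the glucocorticoid receptor recognizes, and for AGGTCA, the hexamer of thyroid hormone receptors. TGTTCT was in 1 of the 12 windows and in 18.9% of all 32544 windows, and AGGTCA in 2 of the 12 and in 16.2% of all. Neither the complete glucocorticoid response element nor the direct repeat of the thyroid hexamer was in any of the 12, and these were in 0.00922% and 0.0154% of all windows. The windows with a match are given because *Il1rl1* passed in each of the 12 fits without 1 array and *Dysf* carries each hexamer in 1 of its windows. Each is read along the strand of the gene, with the hexamers (or their reverse complement) in capitals, and the rest in lower case. *Il1rl1* is at chr1:40439379-40439678 and the *Dysf* windows at chr6:84008348-84008647 and chr6:84019136-84019435, all on the plus strand.
Il1rl1: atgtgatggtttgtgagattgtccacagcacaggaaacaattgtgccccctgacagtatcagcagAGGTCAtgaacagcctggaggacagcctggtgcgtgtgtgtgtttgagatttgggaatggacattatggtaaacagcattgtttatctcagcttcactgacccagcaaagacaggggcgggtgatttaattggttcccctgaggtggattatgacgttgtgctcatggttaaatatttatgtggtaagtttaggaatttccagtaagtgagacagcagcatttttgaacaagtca
Dysf, upstream window: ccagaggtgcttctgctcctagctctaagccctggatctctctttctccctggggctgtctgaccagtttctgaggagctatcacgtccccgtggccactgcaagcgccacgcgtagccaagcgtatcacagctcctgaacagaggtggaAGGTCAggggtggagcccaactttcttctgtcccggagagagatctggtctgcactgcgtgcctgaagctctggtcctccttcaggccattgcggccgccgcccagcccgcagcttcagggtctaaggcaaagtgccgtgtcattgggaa
Dysf, downstream window: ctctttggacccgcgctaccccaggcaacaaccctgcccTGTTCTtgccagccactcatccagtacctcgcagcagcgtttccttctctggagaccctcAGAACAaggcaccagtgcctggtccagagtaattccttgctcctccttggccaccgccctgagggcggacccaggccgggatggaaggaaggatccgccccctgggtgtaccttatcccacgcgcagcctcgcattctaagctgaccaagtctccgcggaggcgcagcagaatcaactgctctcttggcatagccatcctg
The thyroid hexamer starts 185 bases before the transcript start in *Il1rl1* and 100 bases before it in the upstream window of *Dysf*. In the downstream window of *Dysf* the glucocorticoid hexamers start 211 and 151 bases before the start. A match of 6 letters is a description of the sequence and not a binding site.

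Departures above the product of the effects were smaller. None of the positive interactions passed, and the 8 with the smallest p had adjusted p values of 0.15 to 0.25. They were *Sertad2* (0.52), a transcriptional coregulator, *Pik3r3* (0.51), a regulatory subunit of phosphatidylinositol 3-kinase, *Kat2b* (0.51), a histone acetyltransferase, *Epb41l5* (0.42), *Zmynd11* (0.45), *Helq* (0.43), a DNA helicase, *Tle1* (0.57), a corepressor, and *Tmem199* (0.45). *Sertad2* read 1416, 1557 and 1524 on T3+CORT arrays, 1303, 1268 and 1189 on CORT arrays, 1033, 1143 and 1240.2 on T3 arrays and 1460.1, 1343 and 1298 on vehicle arrays. T3+CORT lay above CORT, and T3 below vehicle, without overlap. *Tle1* differed in that T3 with CORT had little effect (0.04) and T3 alone a lower signal (-0.53, adjusted p = 0.066). Its means were 1895 ± 114 with T3+CORT, 1855 ± 290.0 with CORT, 826 ± 83.7 with T3 and 1190.0 ± 41.5 with vehicle. Other probes of these genes did not all share the values: the second probe of *Sertad2* gave 0.05 and the other probes of *Tle1* gave 0.001 and 0.06, while those of *Zmynd11* ranged between 0.02 and 0.52.

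The study lists 9 genes for T3, of which *Spon2* is described above. None of the interactions of the other 8 passed. *Klf9*, a Krüppel-like factor and known direct target of both receptors, read 4686, 4938 and 5411 with T3+CORT, 2014, 1811 and 2099 with CORT, 2809, 2595 and 3006 with T3 and 876, 963 and 887 with vehicle. The 4 groups did not overlap. T3 multiplied the signal by 2.54 with CORT present and by 3.08 without it, an interaction of -0.28 (95% interval -0.54 to -0.02, adjusted p = 0.71). The signal expected from multiplied effects was 6078 and that from added changes 3870.0, with the observed mean of 5012 ± 368 between them (SD, n = 3 arrays). The excess over the added changes was 1140 ± 222 (SE) and did not pass (adjusted p = 0.070). A second transcript, 2310051E17Rik, listed by RefSeq as a synonym of *Klf9*, had an interaction of 0.14 (adjusted p = 0.96), and with each array left out in turn this ranged between -0.08 and 0.26.

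*Cyb561*, the gene for a cytochrome b561, an electron carrier of secretory vesicles, read 643, 682 and 805 with T3+CORT, 254, 268 and 244 with CORT, 189, 172 and 168 with T3 and 67.2, 67.9 and 67.3 with vehicle. The groups did not overlap, and every vehicle array was below the limit. The observed mean of 710.1 ± 84.5 was close to the 666 expected from multiplied effects and above the 364 expected from added changes. The interaction was 0.09 (95% interval -0.19 to 0.36, adjusted p = 0.96), and its sign depends on the vehicle level: it was 0.65 with signals below 100 set to 100 and -0.34 after a background correction with normexp and an offset of 16. The excess over added changes was 346 ± 43.9 (SE, adjusted p = 0.0060).

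*Dbp*, a circadian output factor, *Tas1r1*, a taste receptor subunit, and *Cdon*, a cell surface receptor of the immunoglobulin family, also had interactions near 0. *Dbp* averaged 1163 ± 126 with T3+CORT, 692 ± 65.1 with CORT, 828 ± 67.0 with T3 and 462 ± 14.9 with vehicle, with an interaction of -0.09 (95% interval -0.39 to 0.21). *Tas1r1* averaged 301 ± 22.5 with T3+CORT, 122 ± 7.67 with CORT, 253 ± 39.9 with T3 and 94.3 ± 9.36 with vehicle, with an interaction of -0.105 (95% interval -0.44 to 0.23). *Cdon*, which T3 raised and CORT lowered, had 471 ± 25.4 with T3+CORT, 300.5 ± 26.1 with CORT, 572 ± 29.6 with T3 and 379 ± 12.4 with vehicle, and an interaction of 0.055 (95% interval -0.20 to 0.32). These intervals leave room for departures of 0.2 to 0.4 on the log2 scale in either direction.

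*Ppm1h*, a protein phosphatase gene, and *Npr3*, the clearance receptor for natriuretic peptides, lay below the product. *Ppm1h* read 217, 209 and 218 with T3+CORT, 189, 179.6 and 182 with CORT, 266, 255 and 233 with T3 and 140.0, 139.8 and 155 with vehicle. The groups did not overlap, and the T3 arrays were the highest. T3 alone raised it (T3 effect 0.79 on the log2 scale, adjusted p = 8.6e-05) and the T3 effect with CORT was 0.23 (adjusted p = 0.32). The interaction of -0.57 fell short of the threshold (95% interval -0.81 to -0.33, adjusted p = 0.072). *Npr3* had T3 effects of 0.12 with CORT and 0.42 without it, and an interaction of -0.30 (adjusted p = 0.69).

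The genes that the study names for joint action of the hormones were chosen on these arrays, so that their values are no independent evidence. The study counted a gene as synergistic if only T3+CORT changed it, or if T3+CORT exceeded the additive effect of the hormones. Neither rule asks for a departure from multiplied effects, so the interaction is a different measure and does not test its lists. By quantitative PCR the study also reported synergy for *Klf9* and *Cyb561*. The genes read here are mostly from its lists of the strongest effects and are a part of all the genes it counts as synergistic. Of these 38 genes 37 were tested, each at its brightest probe, which is not always the probe the study used. Negative interactions passed for 3 of them, *Angptl4*, *Aqp5* and *Sox9*, and 0 positive ones passed. At an unadjusted p under 0.05, 12 were negative and 3 positive, against 331 (3.84%) and 285 (3.30%) of 8630 genes. Among the negative ones only *Klf9* is listed by the study as induced, and the others are listed as repressed. For a repressed gene a negative value means that T3+CORT lowered the signal further than the product of the separate effects. The 3 positive ones are listed as induced. *Klf9*, *Cyb561* and 2310051E17Rik are among the 38 as well as among the 9 T3 genes. The positive ones were *Ear3*, E230024B12Rik and B430216N15Rik. *Ear3*, an eosinophil-associated ribonuclease of a family of near-identical genes, read 214, 249 and 279.9 with T3+CORT, 155, 146 and 189.9 with CORT, 73.2, 63.7 and 71.2 with T3 and 67.8, 62.4 and 65.7 with vehicle. T3+CORT lay above CORT on every array, and the groups without CORT were below the limit. Its interaction was 0.52 (adjusted p = 0.39).

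The proliferin paralogs of the prolactin family, whose probes may share transcripts, had their lowest means with both hormones. *Prl2c4* averaged 1102 ± 104 with T3+CORT, 1670.0 ± 44.3 with CORT, 1984 ± 22.1 with T3 and 2009 ± 145 with vehicle (SD, n = 3 arrays). *Prl2c2* averaged 1502 ± 168 with T3+CORT, 2213 ± 143 with CORT, 2448 ± 414 with T3 and 2439 ± 347 with vehicle, and *Prl2c3* 1555 ± 181 with T3+CORT, 2101 ± 60.6 with CORT, 2643 ± 139 with T3 and 2730 ± 232 with vehicle. The T3+CORT arrays of each lay below all others of that gene. The interactions were -0.59, -0.56 and -0.395, with adjusted p values of 0.067, 0.43 and 0.46, and T3 with CORT lowered each of the 3 (adjusted p = 0.0011, 0.049 and 0.032).

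**Figure D3:**
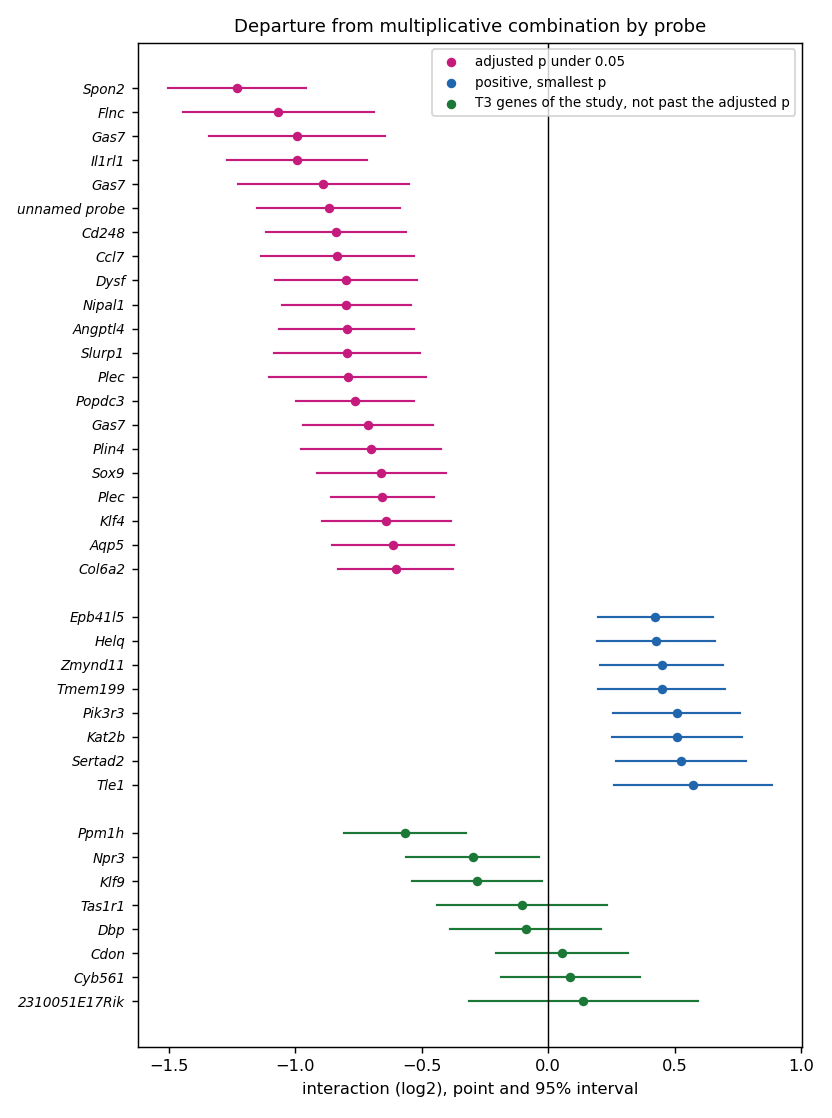
Interaction on the log2 scale with its 95% interval for the 21 probes that passed, for the 8 positive probes with the smallest p and for 8 T3 genes of the study. The intervals of the 21 lie wholly below 0, between -1.50 and -0.37, and those of *Cyb561*, *Dbp*, *Tas1r1*, *Cdon* and 2310051E17Rik cross 0.

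Read on linear signals, where 0 means that the changes of the separate hormones add, 21 probes departed from additivity at an adjusted p under 0.05 (0.138%), 20 below the sum and 1, *Cyb561*, above it. Of the 21 probes with a negative interaction, 13 were among them. *Plec*, at its bright probe, had an observed mean of 5872 against 8839 expected from added changes (difference -2970 ± 425 SE, adjusted p = 0.011), and *Spon2* had 1808 against 4732 (difference -2920 ± 356 SE, adjusted p = 0.0060). *Ccl7*, *Angptl4*, *Aqp5*, *Flnc*, *Sox9*, *Klf4*, *Dysf* and the dimmer *Plec* probe passed on the log2 scale only.

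The interaction was also read over gene lists whose members were chosen with earlier results of these arrays known. Each gene entered with its brightest probe. The lists share genes, and no list was tested against other genes. Members named in this paragraph and the next, other than those above, were chosen after their values were seen, and none of them passed an adjusted p of 0.05 unless stated. Of 34 extracellular matrix genes tested 29 were below 0, with a median of -0.19 against 0.006 for all 8630 genes, of which 48.6% were below 0. At an unadjusted p under 0.05, 11 were negative and 0 positive, against 3.84% and 3.30% of all genes, and 1, *Spon2*, passed the adjusted p. Among the 11 were *Hspg2* (-0.57), the core protein of perlecan, *Timp3* (-0.50), a metalloproteinase inhibitor, *Dcn* (-0.50), the proteoglycan decorin, and *Loxl1* (-0.46), a crosslinking enzyme. *Dcn* averaged 2653 with T3+CORT, 4135 with CORT, 2642 with T3 and 2924 with vehicle. All 16 fibroblast and mesenchymal markers tested were below 0 (median -0.08), 4 of them at an unadjusted p under 0.05. The summed signal of the 19 such markers with a probe was 40338 to 41718 on T3+CORT arrays, 45048 to 46408 on CORT arrays, 44580 to 52606 on T3 arrays and 44793 to 48843 on vehicle arrays, and its part in these results was not tested.

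Over all 8630 genes 3.84% were negative and 3.30% positive at an unadjusted p under 0.05, the criterion of the counts that follow. Of 33 genes listed as glucocorticoid-induced, which CORT did not all raise here, 10 were negative and 1 positive (median -0.13). *Angptl4* and *Plin4* passed the adjusted p. CORT lowered *Angptl4*, by more with T3 (CORT effects -0.47 alone and -1.27 with T3), and raised *Plin4*, by less with T3 (2.16 and 1.46). The other negative ones included *Tgm2* (-0.50), a transglutaminase, and *Fam107a* (-0.445). The positive one was *Pdk4* (0.30), a kinase that inhibits pyruvate dehydrogenase. Of 24 inflammatory mediators 8 were negative and 0 positive, with *Il1rl1* and *Ccl7* past the adjusted p and *Nfkbiz* (-0.425), an NF-kappaB regulator, next. Of 21 thyroid hormone target genes 5 were negative and 1 positive (median -0.14), with *Spon2* past the adjusted p. Among the negative ones *Klf9*, *Ppm1h*, *Npr3* and *Spon2* are on the T3 list that the study drew from these arrays. The count for this list is therefore no independent evidence. Of 14 clock genes 2 were negative, *Bhlhe40* (-0.50) and *Per2* (-0.31), and 0 positive. Immediate early genes went both ways, with 4 negative and 4 positive of 25. The positive ones were *Ccn1* (0.54 at its brightest probe), *Srf* (0.44), *Egr1* (0.44) and *Ier3* (0.41). *Egr1* averaged 1026 with T3+CORT, 753 with CORT, 2214 with T3 and 2193 with vehicle.

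Actin, SRF and YAP genes had 5 negative and 2 positive of 37, with 26 below 0 (median -0.15). Proteasome subunits (0 negative and 1 positive of 37, median 0.005), DNA replication and mitosis genes (1 and 1 of 40, median 0.025) and amino acid transport and ATF4 targets (2 and 1 of 37, median -0.02) had few values past an unadjusted p of 0.05. Glutathione and NRF2 targets had 3 negative and 4 positive of 35, and receptors and cofactors of the hormones 1 and 1 of 21. Of 13 reference genes 1 was negative, *Hprt* (-0.29), and the median was 0.06. Of 22 glial and immune cell markers with a probe 5 were tested, all below 0 (median -0.22), 2 of them at an unadjusted p under 0.05. Their summed signal was 9414 to 10527 on T3+CORT arrays, 10642 to 11419 on CORT arrays, 8774 to 10520.0 on T3 arrays and 9511 to 9654 on vehicle arrays, and its part in these results was not tested.

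**Figure D4:**
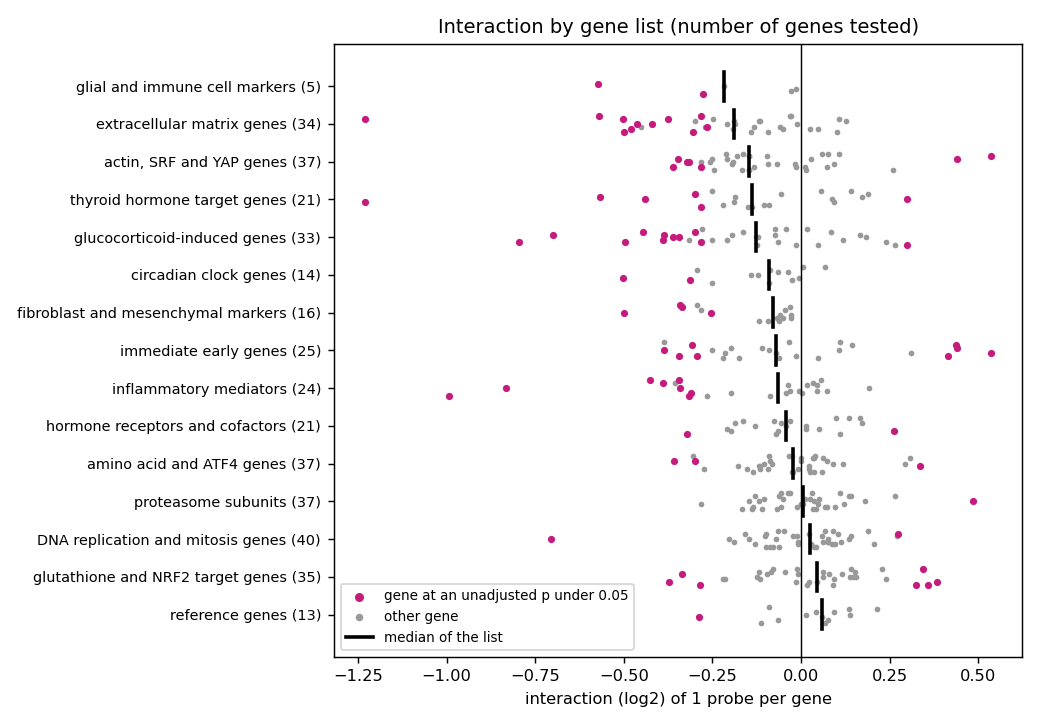
Interaction (log2) of each tested gene, at 1 probe per gene, in the gene lists with at least 5 tested genes; the bar marks the median of a list, and magenta points have an unadjusted p under 0.05. Extracellular matrix genes have a median of -0.19 with 11 magenta points below 0 and 0 above, while proteasome subunits have a median of 0.005.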

How the data were processed

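The intensity values used are the normalized linear intensities deposited by the authors, whose methods give rank-invariant normalization with the BeadStudio software. They were taken to the log2 scale without further correction. The 24 columns of a separate table of raw signals and detection p-values match no sample label and were not used, so a normalized signal of 100 on at least 3 of 12 arrays served as the filter in place of a detection call, as had been set out for this case.

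In limma 3.58.1 (R 4.3.3), 1 linear model held the 4 group means (lmFit, eBayes with a mean-variance trend, 8 residual degrees of freedom before moderation), and the interaction and the separate effects were read from it as two-sided contrasts that share arrays. The same contrast on linear signals tested additivity. The log2 fit was run on simulated data with known interactions and the same spread in all groups. The wider spread of the T3 arrays was not simulated. Percentages expected are from means of log2 signals. Replicate numbers were not used to pair the arrays, and the labels do not say whether they do (the check is with the processing alternatives).

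Probe names are from the platform annotation (34885 of 45281 probes with 1 symbol, 18 with several, 10378 with none, 84 of these named from the probe lists of the study). Named are the 12 most negative and positive interactions that passed, or the smallest p up to 8 in a direction with fewer, genes the study names for synergy or T3, list members that passed, and other probes of the first. The remaining probes that passed, and genes said to be, were named after their values were seen. The members, lists and tests were chosen with earlier results of these data known. The comparisons each have Benjamini-Hochberg values over 15255 probes. Promoter sequences are RefSeq's.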

Additional observations from a re-analysis of the deposited data

Results flagged for a closer look

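At 21 probes the effect of T3 with CORT present differed from that of T3 alone by the interaction test (limma, adjusted p under 0.05), and each value below is the difference of these effects on the log2 scale. It was -1.23 for *Spon2*, -1.068 for *Flnc*, -0.992 for *Il1rl1* and, for *Gas7*, -0.992, -0.889 and -0.713. It was -0.867 for the unnamed probe, -0.837 for *Cd248*, -0.833 for *Ccl7*, -0.8 for *Dysf*, -0.799 for *Nipal1* and -0.796 for *Angptl4*. It was -0.794 for *Slurp1*, -0.792 and -0.656 for *Plec*, -0.764 for *Popdc3*, -0.701 for *Plin4*, -0.66 for *Sox9*, -0.64 for *Klf4*, -0.613 for *Aqp5* and -0.603 for *Col6a2*. Groups of 3 arrays are too small for a test of single arrays as outliers.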

How the results depend on the processing

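All 21 probes with a negative interaction stayed below 0 in every fit in which they were tested. Without a filter 17 passed, with a limit of 80 or 150 (limits chosen after seeing the data) 18 and 20, with normexp offsets of 16 and 50 20 and 21, after quantile normalization 21 (the arrays already shared 1 distribution, so that this setting could change little), and without the trend or with robust eBayes 22 each. Array weights moved the interaction count to 70 and the additive count to 69 (13 above and 56 below the sum). The Welch t-test of the same contrast passed 0 in each. Leaving out 1 array gave 2 to 20 probes at the adjusted p, 42 to 82 at the thresholds of the study (82 without T3 replicate 3, 18 positive and 64 negative) and 9 to 25 for additivity. The count at the thresholds of the study was 90 with a normexp offset of 16 (10 positive, 80 negative), and the additive count was 12 without the trend. The cause of these moves was not tested.

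Same-numbered arrays of different groups correlated in their deviations at r of -0.30 to 0.47, with 7 of 18 pairs over 0.1, and other pairs at -0.42 to 0.45. With the replicate number as a block 16 probes passed, 15 of them among the 21, 48 passed at the thresholds of the study and 26 for additivity. The limit from a detection p could not be run.

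For single probes the sign turned for *Cyb561* with a normexp offset of 16 (-0.34), *Ubtd2* with array weights (-0.097), *Slc38a4* with a normexp offset of 50 (0.001) and *Tmsb4x* with array weights (0.013). Leaving out 1 array turned the sign of interactions near 0, which ranged as follows: *Cyb561* -0.007 to 0.154, 2310051E17Rik -0.077 to 0.261, *Lbr* -0.065 to 0.076, *Ubtd2* -0.086 to 0.158, *Slc3a2* -0.169 to 0.14, *Slc38a4* -0.207 to 0.149, *Gprc5a* -0.229 to 0.096, *Kdm6b* -0.131 to 0.099, *Tob2* -0.054 to 0.141, *Actb* -0.049 to 0.085, *Tomm6* -0.132 to 0.167, *Dbp* -0.169 to 0.003, *Tas1r1* -0.225 to 0.005, *Cdon* -0.017 to 0.105.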
